A study of Mus musculus with 6 samples.

Results

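Genes of the interstitial matrix were followed in embryoid bodies in which the transcription factor Snail was switched on while Wnt signaling was blocked. The set held 10 genes, of 18193 genes that a probe set of the array names alone: the collagen chains Col1a1, Col1a2, Col3a1, Col5a1 and Col5a2, the collagen-binding glycoprotein Sparc, the fibrillins Fbn1 and Fbn2, the microfibril protein Emilin1, and fibronectin (Fn1). They were picked as genes for the fibrils and microfibrils between cells, with earlier results of these arrays known, and every probe set that the array's annotation gives to a member alone was used. Of the 10 genes, 9 were measured, by 21 probe sets, and Fbn1 was not analysed here. Col3a1, Fbn2 and Emilin1 also appear in a heat map that the study drew from the same arrays, so their direction is not independent evidence. By RT-PCR, the study also reported that Snail raised fibronectin RNA, including where Wnt signaling was inhibited.

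All cultures were A2.snail mouse embryonic stem (ES) cells, a line that carries Snail under a doxycycline-inducible promoter, differentiated as embryoid bodies in serum with the Wnt inhibitor DKK1. DKK + dox cultures also received 250 ng/mL doxycycline at day 2, and DKK cultures received none. RNA was taken 6 hours later (day 2.25), 12 hours later (day 2.5) and 24 hours later (day 3), and measured on 1 array for each condition and time, 6 in all. No array of doxycycline-treated cells without the Snail transgene was analysed here, so doxycycline and Snail cannot be told apart. The line had been kept on embryonic fibroblast feeders and passaged once without them before differentiation.

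The median intensity of an array lay between 53.6 and 63.7, and 37.5% to 41.3% of all probe sets on an array were at or under 37.2, the pooled 40th percentile, which is called the low-signal limit here. The 1 probe set named for Snai1, the gene for Snail, gave 29.6, 18.75 and 14.49 in DKK + dox cultures at 6, 12 and 24 hours and 32.9, 16.55 and 10.89 in DKK cultures, all under that limit, so it could not check the labels. All 14 pluripotent and epiblast cell markers examined were above the limit on all 6 arrays. Of these 14, 6 fell and 0 rose, among them Cdh1, the epithelial cadherin (fitted log2 difference -1.25), by the test of the whole array that called 6.38% of all genes as falling and 8.32% as rising.

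The interstitial matrix is laid down by mesenchymal cells. Collagen I and collagen III chains form the bulk of its fibrils, and collagen V is built into the same fibrils and helps to start them. Sparc is secreted and binds collagen, fibrillins assemble into microfibrils that also hold latent growth factors, Emilin1 sits where elastin meets microfibrils, and cells pull secreted fibronectin into fibers through integrins. Fibronectin is also made early in the embryo, and cells that move between layers migrate on it.

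Differences between conditions are given on a log2(intensity + 20.6) scale, on which those of dim genes are understated. The test fitted, for each of 14755 genes with limma, a difference of DKK + dox minus DKK that grows in proportion to the hours since doxycycline, with time as a block, and the fitted difference is given at 24 hours. A gene that passed is said to rise or fall by the sign of this difference, whatever its own course over the hours. With 1 array per condition and time, an adjusted p from this fit sets that trend against the scatter of the arrays around it and not against the spread between cultures, and the difference between conditions at 1 time, from 2 arrays, has no check by replicates. In whole cultures, a change in the number of cells that make an RNA and a change in RNA per cell cannot be told apart.

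Of the 9 genes measured, 7 rose in DKK + dox cultures and 0 fell, by limma with adjusted p under 0.05, where 8.32% of all genes tested rose and 6.38% fell. The 7 were Col3a1, Col5a1, Col5a2, Fbn2, Emilin1, Sparc and Fn1, while Col1a1 and Col1a2 did not pass the test. Col5a2 entered the fit through its DKK + dox arrays alone, being under the low-signal limit on all DKK arrays, and without it 6 of 8 genes rose. The count depended on the model: 0 of the 9 passed when the same difference was fitted at every time, 3 with time as a linear covariate, 4 with no intensity trend in limma, and 1 (Fbn2) without the 24 hour arrays. In the same order, 0, 121, 209 and 229 of all 14755 genes rose, so calls were lost over the whole array. Without the 24 hour arrays the fitted log2 differences of Col3a1 (2.09), Col5a2 (2.27), Emilin1 (1.97) and Col5a1 (1.44) stayed large, while that of Fn1 was 0.10. The difference built up with time. Of the 9, those higher by at least 2-fold in DKK + dox than in DKK cultures numbered 0 at 6 hours, 4 at 12 hours and 6 at 24 hours, against 0.271%, 1.27% and 3.12% of all genes. Their median log2 difference was 0.03, 0.86 and 1.39 at the same times, and the median over all genes was -0.04, 0.03 and 0.02. These counts and medians include Col5a2, which was among the genes at least 2-fold higher at 12 and 24 hours.

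**Figure D1:**
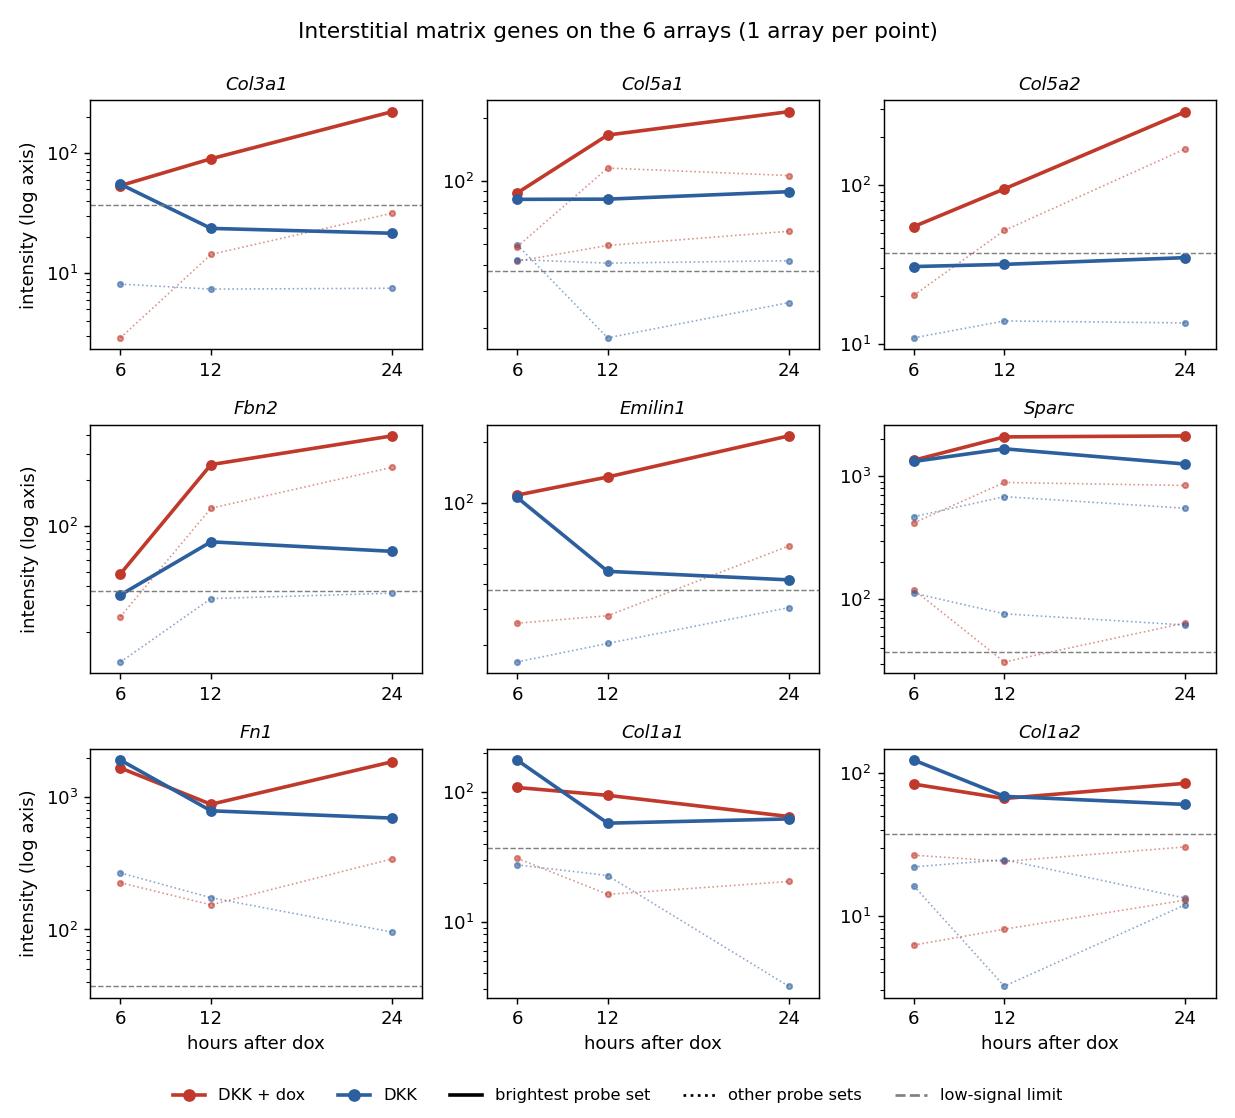
Intensity (linear, arbitrary units, logarithmic axis) of the 21 probe sets of the 9 genes against hours after doxycycline, with 1 point for each array, red lines for DKK + dox and blue for DKK cultures, solid for the brightest probe set of a gene, dotted for the others, and a dashed line at the low-signal limit. The brightest probe sets of Col3a1, Col5a2, Fbn2 and Emilin1 separate between the conditions by 12 hours, Fn1 by 24 hours, and the Col1a1 values lie close together at 24 hours.

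Among the fibril-forming collagens, Col3a1 and the 2 chains of collagen I differed. Col3a1 encodes the single chain of collagen III, the collagen of pliable tissues. Its 300-base promoter window is shown because Col3a1 was among the genes that differed most at 24 hours, beside that of Col1a2, which did not pass the test, and both are from RefSeq on build GRCm38.p6, covering 250 bases before the start and 50 after it, with 3 motifs that were searched on both strands in capitals: CAGGTG, an E-box of the kind Snail binds, CCAAT, and TATAAA, the TATA box.
Col3a1, chr1:45311288-45311587, plus strand: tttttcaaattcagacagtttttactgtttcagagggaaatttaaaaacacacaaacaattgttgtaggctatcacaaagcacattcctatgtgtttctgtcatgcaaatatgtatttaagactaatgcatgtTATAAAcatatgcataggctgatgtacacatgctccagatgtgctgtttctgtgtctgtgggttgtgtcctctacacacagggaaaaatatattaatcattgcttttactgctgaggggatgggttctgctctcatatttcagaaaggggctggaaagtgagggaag
Col1a2, chr6:4505368-4505667, plus strand: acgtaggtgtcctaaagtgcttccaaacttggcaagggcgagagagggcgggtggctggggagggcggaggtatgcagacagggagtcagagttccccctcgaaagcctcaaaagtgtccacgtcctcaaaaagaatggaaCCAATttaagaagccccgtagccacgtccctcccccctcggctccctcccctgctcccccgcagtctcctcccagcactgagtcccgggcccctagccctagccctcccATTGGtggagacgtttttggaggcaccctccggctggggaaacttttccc
The Col3a1 window held TATAAA at position -117 and the Col1a2 window CCAAT at -109 and, on the opposite strand, at 1. Of 32851 mouse promoter windows of this length, 13.6% held TATAAA, 37.4% CCAAT and 20.2% CAGGTG. Neither of these windows held CAGGTG. GC content was 37.7% for Col3a1 and 61.0% for Col1a2.

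Col3a1 was at 53.7, 89.7 and 221 in DKK + dox cultures at 6, 12 and 24 hours, and at 55.1, 23.6 and 21.5 in DKK cultures. The conditions were alike at 6 hours and then parted, with the DKK arrays of 12 and 24 hours under the low-signal limit. Set against that limit, DKK + dox was at least 2.41-fold higher at 12 hours and at least 5.95-fold higher at 24 hours. The fitted log2 difference was 2.42 ± 0.30 (SE, adjusted p = 0.00362). The other Col3a1 probe set was under the limit on all 6 arrays.

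Col1a1 and Col1a2 encode the chains of collagen I, the main collagen of bone, skin and tendon. Col1a1 was at 109, 94.7 and 65.0 in DKK + dox cultures and at 177, 57.7 and 62.3 in DKK cultures, lower than DKK at 6 hours, higher at 12 and close to it at 24. Its fitted log2 difference was 0.13 ± 0.33 (SE, adjusted p = 0.84). Col1a2 was at 83.7, 66.4 and 84.8 in DKK + dox cultures and at 123, 68.7 and 60.3 in DKK cultures, with a fitted difference of 0.19 ± 0.27 (SE, adjusted p = 0.714). For both chains the highest of the 6 values was that of DKK cultures at 6 hours. The other Col1a1 probe set and the other 2 of Col1a2 were under the low-signal limit on every array.

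Both collagen V chains were higher in DKK + dox cultures from 12 hours on, Col5a2 by more than Col5a1. Col5a2 was at 54.9, 94.8 and 289.8 in DKK + dox cultures and at 30.8, 31.8 and 35.0 in DKK cultures. All 3 DKK + dox values were above the low-signal limit and all 3 DKK values under it, so the ratio was at least 1.48-fold at 6 hours, 2.55-fold at 12 hours and 7.79-fold at 24 hours. The fitted log2 difference was 2.43 ± 0.22 (SE, adjusted p = 0.00161). Col5a2 entered that fit through DKK + dox alone, so this p is no support beyond the ratios. A second probe set, at 20.3, 51.9 and 169 in DKK + dox cultures and 11.0, 14.0 and 13.6 in DKK cultures, was likewise under the limit on all DKK arrays and at least 4.55-fold higher in DKK + dox cultures at 24 hours. In RefSeq, Col5a2 and Col3a1 lie next to each other on chromosome 1 with no annotated gene between them.

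Col5a1 was at 87.7, 165.5 and 214 in DKK + dox cultures and at 81.8, 81.9 and 88.9 in DKK cultures. The DKK values hardly moved over the 3 times, and the 12 and 24 hour DKK + dox values lay above all of them. The fitted log2 difference was 1.18 ± 0.22 (SE, adjusted p = 0.013), a call lost with a constant difference (adjusted p = 0.149), linear time (0.0866), no intensity trend (0.0583) or no 24 hour arrays (0.14). A second Col5a1 probe set, at 48.6, 115 and 106 in DKK + dox cultures and 42.2, 40.6 and 41.7 in DKK cultures, also passed (adjusted p = 0.0265), and the other, at 41.5, 49.3 and 57.6 in DKK + dox cultures and 49.7, 17.9 and 26.3 in DKK cultures, did not (adjusted p = 0.112).

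Sparc had the smallest of the 7 differences that passed. Its promoter window is shown because, of the 5 measured members whose windows were examined singly, it was the 1 that held CAGGTG. The 5 were Col1a2, Col3a1, Col5a1, Emilin1 and Sparc. Windows of Col1a1, Col5a2, Fbn2 and Fn1 were not examined singly, so whether they hold CAGGTG is not known here. The windows of Col5a1 and Emilin1 begin from a start that differs from that in the RefSeq gene table, so their lack of it is uncertain. The motif is in capitals and starts at position -1, and the sequence is from RefSeq on build GRCm38.p6.
Sparc, chr11:55420031-55420330, minus strand: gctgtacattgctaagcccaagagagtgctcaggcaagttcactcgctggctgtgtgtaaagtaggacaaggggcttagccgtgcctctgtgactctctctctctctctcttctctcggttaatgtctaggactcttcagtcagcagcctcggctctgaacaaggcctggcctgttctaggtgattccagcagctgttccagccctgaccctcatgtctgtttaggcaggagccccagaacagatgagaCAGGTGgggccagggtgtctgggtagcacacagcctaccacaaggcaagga
Sparc was at 1352.5, 2093 and 2132 in DKK + dox cultures and at 1322, 1675 and 1259 in DKK cultures. The values of both conditions were higher at 12 than at 6 hours, and at 24 hours DKK was lower again while DKK + dox was not. The fitted log2 difference was 0.70 ± 0.09 (SE, adjusted p = 0.00456). A second probe set, at 419, 892 and 843 in DKK + dox cultures and 470, 684 and 550.4 in DKK cultures, gave 0.57 ± 0.15 (SE, adjusted p = 0.0442).

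The remaining Sparc probe set went against these. It was at 119.6, 31.0 and 64.3 in DKK + dox cultures and at 112, 76.3 and 61.9 in DKK cultures, and its fitted difference of -0.30 did not pass (adjusted p = 0.632). With the mean of all probe sets of a gene in place of the brightest, Sparc no longer passed (adjusted p = 0.204).

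The microfibril genes Fbn2 and Emilin1 both rose in DKK + dox cultures. Fbn2 encodes fibrillin-2, the fibrillin used mainly in the embryo. It was at 48.3, 254 and 394 in DKK + dox cultures and at 35.0, 78.6 and 68.0 in DKK cultures. Fbn2 was higher at 12 and 24 hours than at 6 in both conditions, and both later DKK + dox values were above every DKK value. The fitted log2 difference was 2.31 ± 0.23 (SE, adjusted p = 0.00204). A second probe set, at 25.2, 131 and 244 in DKK + dox cultures and 12.6, 33.1 and 36.0 in DKK cultures, was under the low-signal limit on all DKK arrays and entered the fit through DKK + dox alone, where it was at least 3.52-fold higher at 12 hours and at least 6.56-fold higher at 24 hours.

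Emilin1 was at 109, 134 and 214 in DKK + dox cultures and at 106, 46.0 and 41.7 in DKK cultures. The conditions started together at 6 hours and moved in opposite directions. The fitted log2 difference was 1.93 ± 0.25 (SE, adjusted p = 0.00443). A second, dim probe set, above the low-signal limit at 24 hours in DKK + dox cultures alone, was at 25.5, 27.8 and 61.3 in DKK + dox cultures and 16.4, 20.3 and 30.4 in DKK cultures and did not pass (adjusted p = 0.147).

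Fn1 followed another course. It was at 1669, 886 and 1858 in DKK + dox cultures and at 1914, 791 and 697 in DKK cultures. In both conditions Fn1 was lower at 12 than at 6 hours, and at 24 hours Fn1 was high again in DKK + dox cultures and not in DKK cultures. The log2 difference between conditions was -0.20 at 6 hours, 0.16 at 12 hours and 1.39 at 24 hours, and the fitted difference was 1.08 ± 0.23 (SE, adjusted p = 0.0228). That call rested on the 24 hour arrays, and without them the fitted difference was 0.10 (adjusted p = 0.868). A second probe set, at 226, 154 and 342 in DKK + dox cultures and 268, 174 and 95.6 in DKK cultures, showed the same order of times within each condition and missed the threshold (1.15 ± 0.35, SE, adjusted p = 0.0745).

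**Figure D2:**
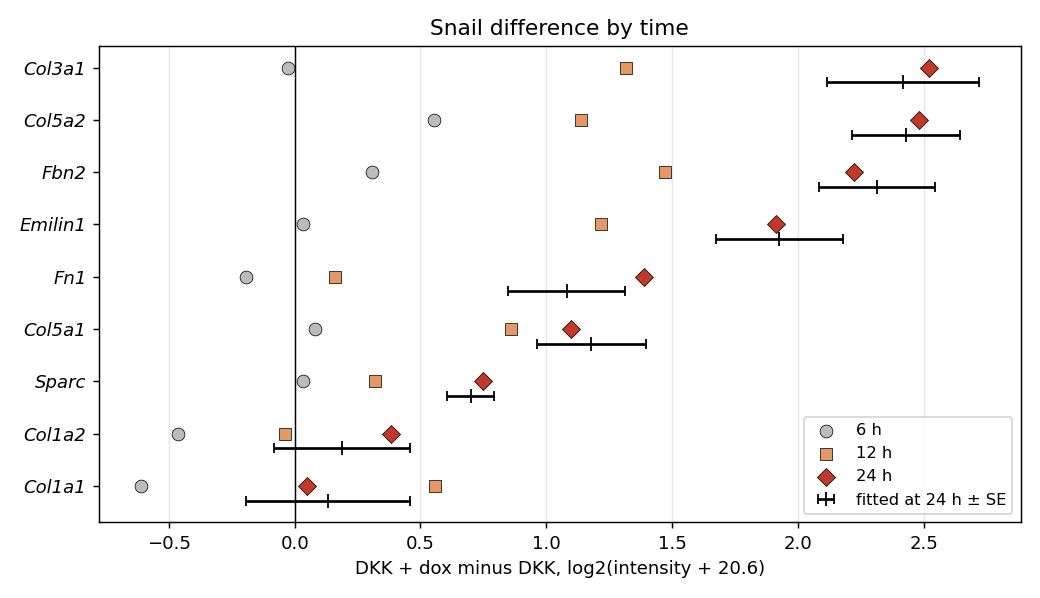
Log2 difference of DKK + dox minus DKK for each of the 9 genes at 6, 12 and 24 hours, on the log2(intensity + 20.6) scale, from 2 arrays at each time, with the fitted difference at 24 hours and its SE as a bar under the points. Col3a1, Col5a2, Fbn2 and Emilin1 reach 1.91 to 2.52 at 24 hours, Fn1 reaches 1.39 with 0.16 at 12 hours, and Col1a1 is at 0.05.

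Across probe sets, 17 of the 21 were above the low-signal limit on at least 1 array and 4 were under it everywhere. Of the 17, fitted as features of their own, 11 rose, 0 fell and 6 did not pass, beside 6.81% of all 26362 probe sets that rose. Of the 11, both Col5a2 probe sets and the second of Fbn2 had entered through DKK + dox arrays alone, and among the 13 above the limit in both conditions 8 rose and 0 fell.

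The time course in DKK cultures went the other way for several of these genes. At 24 against 6 hours, Fn1 (log2 change -1.43), Col1a1 (-1.25) and Emilin1 (-1.03) were at least 2-fold lower in DKK cultures and no gene of the set was at least 2-fold higher, where 4.26% of all genes were lower and 2.51% higher by that much. Emilin1 missed 2-fold after quantile normalization and with centred arrays (-0.88 in each). Col3a1 (-0.84) and Col1a2 (-0.83) were also lower, Fbn2 (0.67), Col5a1 (0.10) and Col5a2 (0.11) were higher, and Sparc (-0.07) took a positive sign when arrays were centred on their medians. The median over the 9 genes was -0.83, and over all genes -0.08, but it was -0.51 with the pooled median as offset and -0.28 with the mean of all probe sets of a gene. In Fn1 most of the change was in the first interval, with -1.25 between 6 and 12 hours. These are differences of 2 arrays with no test.

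In DKK + dox cultures, 4 of the 9 genes gained at least 2-fold by 24 against 6 hours (Fbn2, Col5a2, Col3a1 and Col5a1, with log2 changes of 2.59, 2.04, 1.70 and 1.11), where 5.94% of all genes were higher by that much. Of these 4, Col5a2 had entered the fit through DKK + dox arrays alone. Emilin1 (0.85), Sparc (0.65), Fn1 (0.15) and Col1a2 (0.02) were higher by less, and Col1a1 (-0.60) was lower. For Emilin1 and Fn1, the change in DKK cultures was as large a part of the 24 hour difference as the change in DKK + dox cultures, or larger.

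**Figure D3:**
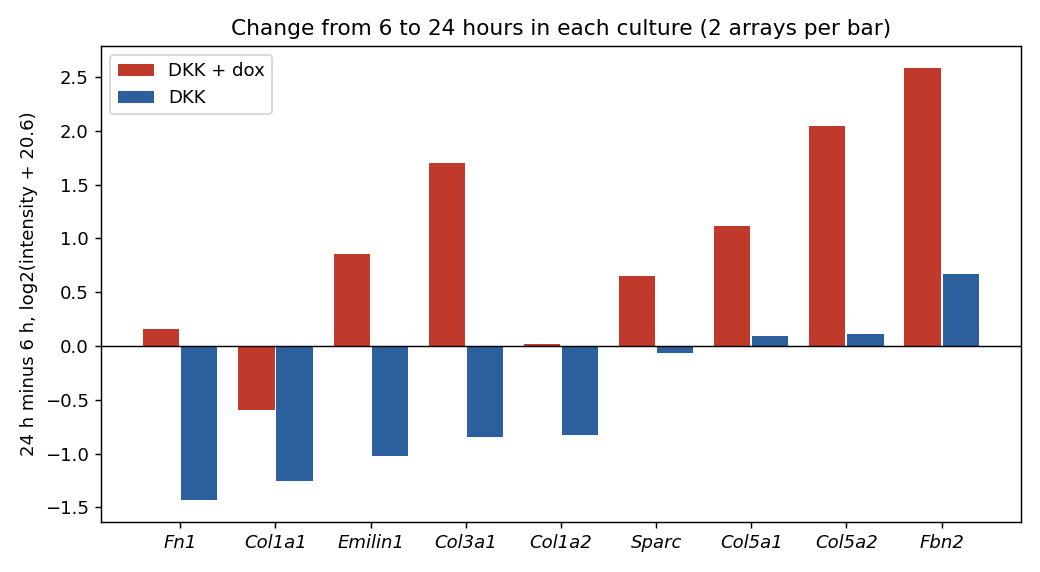
Log2 change at 24 against 6 hours after doxycycline of each of the 9 genes in DKK + dox cultures and in DKK cultures, on the log2(intensity + 20.6) scale, from 2 arrays in each condition. Fbn2, Col5a2, Col3a1 and Col5a1 change by 1.11 to 2.59 in DKK + dox cultures, and Fn1, Col1a1 and Emilin1 change by -1.43 to -1.03 in DKK cultures.

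Correlations over the 6 arrays, which share cultures and times, describe these courses. Col5a1 followed Fbn2 (Pearson's r = 0.97) and Col5a2 (0.95), Col3a1 followed Emilin1 (0.96) and Col5a2 (0.94), and Sparc followed Fbn2 (0.93). Fn1 stood apart from Fbn2 (0.00) and was nearest to Col1a2 (0.86). Among 3414 other genes whose log2 values ranged over at least 1 unit, the courses nearest to that of Fn1 were those of Sox7 (0.989), Abca1 (0.981), Mak (0.979), Stard8 (0.974) and Sox17 (0.973). Sox7 and Sox17 are transcription factors of endoderm and endothelium. The nearest to Sparc were Spaca1 (0.995), Ncoa7 (0.992), Alox15 (0.983), Shank3 (0.977) and Mapk10 (0.975). The nearest to Col3a1 were Glipr2 (0.997), Anxa5 (0.995), Usp11 (0.99), Gnb4 (0.989) and Cdh11 (0.986), the last a cadherin of mesenchymal cells.

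Fibronectin is also a product of parietal endoderm, an extraembryonic layer that secretes basement membrane and can form in embryoid bodies. Of 13 parietal endoderm markers tested, 4 rose and 2 fell in DKK + dox cultures, where 8.32% of all genes tested rose and 6.38% fell. Those with the largest differences were Pth1r (fitted log2 difference 2.49, adjusted p = 0.00224), Sox7 (2.33, adjusted p = 0.0229), Sox17 (1.67, adjusted p = 0.018) and Dab2 (1.31, adjusted p = 0.00419), while Fst and Krt19 fell (Krt19 above the low-signal limit in DKK cultures alone), and Gata4, Gata6 and Foxa2 did not pass. Sox7 was at 277, 54.5 and 356 in DKK + dox cultures and 272, 53.9 and 25.1 in DKK cultures, and Sox17 at 239, 142 and 393 in DKK + dox cultures and 307, 97.3 and 79.9 in DKK cultures. Both were thus low at 12 hours and high again at 24 hours in DKK + dox cultures, as Fn1 was. The courses of the other markers in DKK + dox cultures were mixed. Pth1r was at 63.7, 171 and 276, Dab2 at 429, 334 and 344, and Gata6 at 94.9, 80.2 and 66.8, while Fst was at 204, 183 and 263. All 13 markers were above the low-signal limit on at least 1 array, and their summed intensity was 1180 to 1981 in DKK + dox cultures and 1021 to 1684 in DKK cultures, highest at 24 hours in DKK + dox cultures and lowest at 24 hours in DKK cultures. The 4 markers that rose made up most of the sum at 24 hours in DKK + dox cultures. Of the others at 24 hours, Fst was lower in DKK + dox cultures (263 against 436 in DKK cultures) and Plat higher (86.1 against 33.0). The part of these cells in the Fn1 values was not tested.

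**Figure D4:**
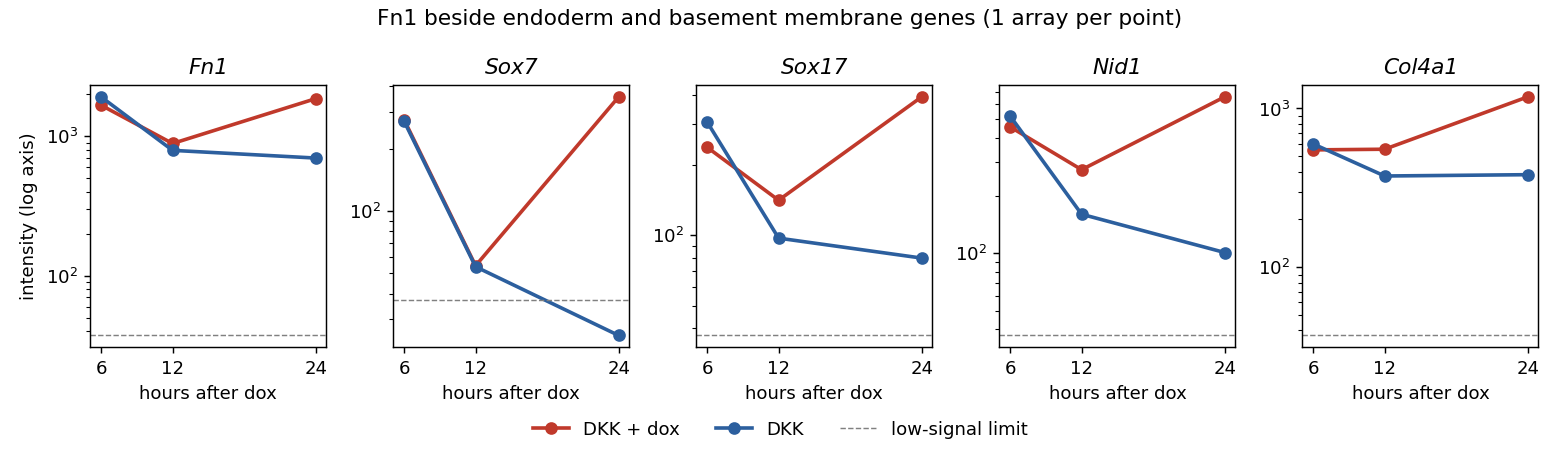
Intensity (linear, arbitrary units, logarithmic axis) of Fn1, Sox7, Sox17, Nid1 and Col4a1 against hours after doxycycline, 1 point for each array, in DKK + dox and DKK cultures, with a dashed line at the low-signal limit. In DKK + dox cultures Fn1, Sox7, Sox17 and Nid1 are lower at 12 than at 6 hours and all 5 genes are higher at 24 than at 12 hours, when Sox7 is at 356 in DKK + dox and 25.1 in DKK cultures.

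Visceral endoderm markers were examined likewise. Of 8 tested, 0 rose and 1 (Apoe) fell, which for so few genes is near the 8.32% of all genes that rose and 6.38% that fell. The sum over the 10 on the array was 1845 to 3848 in DKK + dox cultures and 2465 to 4156 in DKK cultures. Apoe was the largest part of that sum, at 1182 to 2580 in DKK + dox cultures and 1931 to 2746 in DKK cultures. Afp and Apob were under the low-signal limit on every array. Of 10 feeder fibroblast markers tested, 2 rose and 0 fell, beside the same shares of all genes. The 2 were Pdgfrb, a receptor of mesenchymal cells (1.52, adjusted p = 0.00866), and Cd34 (1.22, adjusted p = 0.0198). Acta2 did not pass, at 195.5, 195.9 and 549 in DKK + dox cultures and 249, 213 and 172 in DKK cultures. The sum over the 14 on the array was 1849, 1501 and 2027 in DKK + dox cultures at 6, 12 and 24 hours and 2229, 1262 and 1347 in DKK cultures. The largest part of it was S100a4, at 1135, 678 and 769 in DKK + dox cultures and 1412, 627 and 718 in DKK cultures. Above the limit on at least 1 array were 10 of the 14, and 4 (Thy1, S100a4, Twist2 and Acta2) were above it on all, while Fap, Lum, Postn and Prrx1 were under it on all. The part of feeder cells in the collagen values was not tested.

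The machinery that folds collagen chains in the cell rose in part. Of 15 genes for procollagen folding and hydroxylation that were tested, 7 rose and 0 fell, with a median log2 difference of 0.45 at 24 hours. Over all genes tested, 8.32% rose and 6.38% fell. Serpinh1, the collagen chaperone Hsp47, was at 431, 743 and 1814 in DKK + dox cultures and at 390.3, 382 and 376 in DKK cultures (fitted log2 difference 2.06 ± 0.17, SE, adjusted p = 0.00142). Its DKK values were level, and its DKK + dox values were higher at each later time. The lysyl hydroxylase Plod1 (1.29, adjusted p = 0.0128) and the prolyl hydroxylase subunits P4ha1 (0.98, adjusted p = 0.00553) and P4ha2 (0.94, adjusted p = 0.0189) rose by less.

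Genes that act on collagen outside the cell were tested next. Of 9 for processing and crosslinking, 1 rose and 0 fell, which is near the 8.32% of all genes that rose and 6.38% that fell. The 1 was Pcolce, the enhancer of the protease that trims procollagen, at 667, 201 and 270.0 in DKK + dox cultures and 678, 159.5 and 84.8 in DKK cultures (fitted log2 difference 1.22, adjusted p = 0.0119). It was highest at 6 hours in both conditions. The crosslinking enzyme Lox did not pass (0.36, adjusted p = 0.379).

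Of 4 other fibrillar collagens tested, 0 rose and 0 fell, and of 9 collagen VI and fibril-associated chains, 0 rose and 0 fell, with median log2 differences at 24 hours of 0.32 and -0.18. Over all genes tested 8.32% rose and 6.38% fell, so 0 calls are not unusual for lists this short. The difference between these genes and the members was not itself tested.

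Of 15 microfibril and elastic fiber partners tested, 5 rose and 1 fell, where 8.32% of all genes rose and 6.38% fell. Ltbp4, which tethers latent TGF-beta to microfibrils, fell (fitted log2 difference -1.39, adjusted p = 0.00348), and was at 799, 334 and 186 in DKK + dox cultures and 1166.5, 681 and 452.5 in DKK cultures. Emilin3 (1.14, adjusted p = 0.0264), a relative of Emilin1, Mfap4 (1.09, adjusted p = 0.0212) and Fbln1, a fibronectin-binding fibulin (0.97, adjusted p = 0.00424), rose. Of 12 small leucine-rich proteoglycans and matricellular proteins, 4 rose and 0 fell. Sparcl1, a relative of Sparc, was under the low-signal limit on all DKK arrays, entered the fit through DKK + dox alone and was at least 3.72-fold higher there at 24 hours, and without such genes 3 of 11 rose. They were the large proteoglycan Vcan (1.35, adjusted p = 0.00204), Bgn, which binds collagen fibrils (0.98, adjusted p = 0.00701), and Ccn1 (0.74, adjusted p = 0.0304). Bgn was at 1102, 272 and 286 in DKK + dox cultures and 1087, 188.5 and 129 in DKK cultures. It was thus lower after 6 hours in both conditions, and by less in DKK + dox cultures.

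Of 12 receptors for fibronectin and collagen, 3 rose and 1 fell, where 8.32% of all genes rose and 6.38% fell. The collagen-binding integrin chain Itga1 was at 28.6, 84.0 and 165 in DKK + dox cultures and at 14.9, 22.2 and 17.5 in DKK cultures. All its DKK values were under the low-signal limit, so that it entered the fit through DKK + dox alone, where it was at least 4.44-fold higher at 24 hours. Among the 9 receptors above the limit in both conditions, 2 rose and 1 fell. Itgav, a chain of vitronectin and fibronectin receptors (1.09, adjusted p = 0.00311), and Itga5, a chain of the main fibronectin receptor (0.98, adjusted p = 0.0251), also rose, and the collagen receptor Ddr1, which is typical of epithelium, fell (-1.03, adjusted p = 0.00844). Ddr1 was at 572, 839 and 1034 in DKK + dox cultures and 672, 1584 and 1878 in DKK cultures, higher after 6 hours in both conditions and by less in DKK + dox cultures. Itgb1, the partner chain of Itga1 and Itga5, gave 0.32 (adjusted p = 0.133).

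Basement membrane proteins were mixed: of 12 tested, 3 rose and 2 fell, where 8.32% of all genes rose and 6.38% fell. Nid1, which links laminin to collagen IV, was at 458, 273 and 656 in DKK + dox cultures and at 522, 159.9 and 100.9 in DKK cultures (fitted log2 difference 2.12, adjusted p = 0.00631), lower at 12 than at 6 hours in both conditions and high again at 24 hours in DKK + dox cultures. The collagen IV chains Col4a2 (1.40, adjusted p = 0.0102) and Col4a1 (1.38, adjusted p = 0.00637) rose and the epithelial laminin chain Lama5 fell (-1.45, adjusted p = 0.0078). Other laminin chains took other courses. Lamc1 was at 506.5, 271 and 300 in DKK + dox cultures and 598, 391 and 388 in DKK cultures. Lama1 was at 230, 49.3 and 60.2 in DKK + dox cultures and 271, 43.1 and 34.9 in DKK cultures. Lamb1 was at 1552, 1138 and 1545 in DKK + dox cultures and 1635, 1380 and 1276 in DKK cultures. Parietal endoderm also makes basement membrane proteins, and its share in these values was not tested.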

How the data were processed

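The authors hybridised 6 total RNA samples to Affymetrix mouse genome arrays and normalized them with dChip. Its version was not given in the sources used here. Deposited values are probe set intensities on a linear scale, and log2(intensity + 20.6) was computed from them, 20.6 being the pooled 25th percentile. Of 45037 probe sets, 34945 carried 1 gene symbol in GEO's platform annotation, 932 several and 9160 none listed, and symbols were checked through Entrez identifiers against RefSeq (34741 matched, 0 changed).

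Each of 18193 genes was represented by its brightest probe set, and 14755 with a value above 37.2, the pooled 40th percentile, were tested. With limma 3.58.1 in R 4.3.3, lmFit and eBayes with an intensity trend were fitted with time as a block and a DKK + dox minus DKK difference proportional to hours (4 coefficients, 2 residual degrees of freedom, 5.5 prior degrees), and p-values were adjusted by Benjamini-Hochberg over all genes at 0.05. The script was tested on simulated data. Nothing in the labels says how many cultures went into an array. With 1 array for each condition and time, p-values set the fitted trend against the scatter of the arrays around it, and the number of arrays limits the precision. Differences of 2 arrays had no test, and 2-fold served as the rule. "At least" ratios set DKK at 37.2.

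The members, marker lists and rules were chosen with earlier results of these data known. The 9 measured members were reported on every array. From each list up to 4 genes past the threshold with the largest fitted difference were named, other list genes being named after their values were seen, and for Fn1, Sparc and Col3a1 the 5 genes with the nearest course. Alternatives changed the offset, filter, normalization, probe set per gene, model and arrays.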

Additional observations from a re-analysis of the deposited data

Results flagged for a closer look

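Among genes of the set above the low-signal limit at 6 and 24 hours in both conditions, conditions or times moved in opposite ways for 5. Each was seen in single arrays and not tested. Col3a1 was left out by this rule, its 24 hour DKK value being under the limit. Its log2 changes from 6 to 24 hours, 1.70 in DKK + dox and -0.84 in DKK cultures, also went in opposite ways. The DKK + dox minus DKK log2 difference was negative at 6 hours and positive at 24 hours for Fn1, with a change of 1.58 between those times, for Col1a2, with a change of 0.85, and for Col1a1, with a change of 0.66. Between 6 and 24 hours Emilin1 was higher in DKK + dox cultures and lower in DKK cultures, a difference of 1.88 in log2 change. Sparc did the same by 0.72, but its DKK change was positive when arrays were centred on their medians.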

How the results depend on the processing

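In the main analysis 1227 genes rose, 941 fell and 7 of the 9 matrix genes rose. With the difference held constant over the times, 0 genes rose and 0 fell by limma (lowest adjusted p = 0.0516), 0 matrix genes among them, although 2927 genes and 6 matrix genes had an unadjusted p under 0.05. With time as a linear covariate 121 rose and 80 fell, including 3 matrix genes (Col3a1, Col5a2 and Emilin1), and with no intensity trend in eBayes 209 rose, 76 fell and 4 matrix genes passed (the same with Fbn2). Leaving out 1 time in turn gave 229 to 952 genes that rose, 499 to 754 that fell and 1 to 7 matrix genes, the lowest count of matrix genes (Fbn2) without the 24 hour arrays, where of the other genes that had passed only Fn1 had a fitted difference near 0 (0.10). With the mean of all probe sets of a gene, 5 matrix genes rose, and Fn1 (adjusted p = 0.0611) and Sparc (0.204) did not pass. The median log2 change of the matrix genes at 24 against 6 hours in DKK cultures, -0.83, was -1.02 with an offset of 1, -0.51 with the median as offset, -0.67 after quantile normalization, -0.68 with centred arrays and -0.28 with the mean of all probe sets. Centring moved the median of all genes in that comparison by 0.149. The fitted differences of Col1a1 and Col1a2, neither of which passed the test, turned negative with a constant difference (-0.002 and -0.04), and leaving out 1 time in turn gave -0.1 to 0.40 for Col1a1, lowest without the 12 hour arrays, and -0.43 to 0.29 for Col1a2, lowest without the 24 hour arrays. The cause of these shifts was not tested, and fewer arrays were fitted where a time was left out. Under the other alternatives, 7 matrix genes rose (6 with plain probe sets). Dim genes limit this: 4 of the 21 probe sets were under the low-signal limit on every array. The model already pairs the arrays of 1 time. By replicate number, no paired analysis was possible because each condition and time had 1 array.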
